A study of Mus musculus with 6 samples.

Results

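The 10 genes described here form the core of the mammalian circadian clock: the activators Clock and Arntl (also called Bmal1), the repressors Per1, Per2, Per3, Cry1 and Cry2, the nuclear receptors Nr1d1 and Nr1d2 (REV-ERB alpha and beta), and the output factor Dbp. They were chosen by name, with earlier results of these data known. Their rows are those of the authors' deposited table whose gene column equals any of these symbols. All 10 were found among its 37757 rows, and all 10 were among the 14748 rows that the authors tested. Expression was measured by mRNA sequencing in cultured kidney epithelial cells from C57/Bl6J mice 8 weeks of age, all of the genotype Bim-/- Bmf-/-, so that both groups carry the labelled loss of the same pair of BH3-only death genes. In the attached group (3 libraries) the cells were cultured attached, and in the suspended group (3 libraries, titled Anoikis) they were held in suspension culture for 4 h before RNA isolation. The comparison asks which transcripts differ once cells lose anchorage. The deposited values are FPKM (fragments per kilobase of transcript, scaled to the size of the library), with 1 value per condition over its libraries, so the replicates' spread is not known and neither is the depth. The table names its columns by codes ending in A and S, read here as attached and suspended, and every direction given rests on S standing for suspension. No wild-type cells were analysed here, and whether the libraries came from separate animals or cultures is not given in the labels, so the authors' q-values may measure technical spread only. The labels give neither a time of day nor a step that sets the cells' clocks to a common phase, and each condition was sampled once, so each level is 1 point of a transcript that may cycle.

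In the clock, CLOCK and ARNTL bind together to E-box elements and switch on the Per, Cry and Nr1d genes and Dbp. PER and CRY proteins return to the nucleus and repress CLOCK and ARNTL, which closes the main loop. The REV-ERB receptors repress Arntl through ROR elements, where the ROR receptors activate it, and DBP with its relatives acts on D-box elements in Per genes and others. Most cell types keep such a clock, and in kidney tubules it is known to time sodium and water transport.

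Loss of attachment went with higher transcript levels in much of the repressor side of this circuit and with a lower level of Arntl. Of the 10 clock genes, the authors' deposited table called 6 at q below 0.05, where 51.0% of all tested rows were called. Higher calls took 5 of the 10 (24.7% of all tested rows): Per1, Per3, Cry1, Cry2 and Nr1d2. The single lower call was Arntl, where 26.3% of all tested rows were called lower. Per2, Nr1d1, Dbp and Clock were not called. The median log2 fold change (suspended over attached) of the 10 genes was 0.51, beside -0.03 over all tested rows, per the authors' deposited table. Only Per3 and Nr1d2 were both called and changed at least 2-fold per the authors' deposited table. Of the 5 higher calls, 3 (Per1, Cry1 and Nr1d2) have a deposited locus of their own, and the other two share theirs with other rows.

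**Figure D1:**
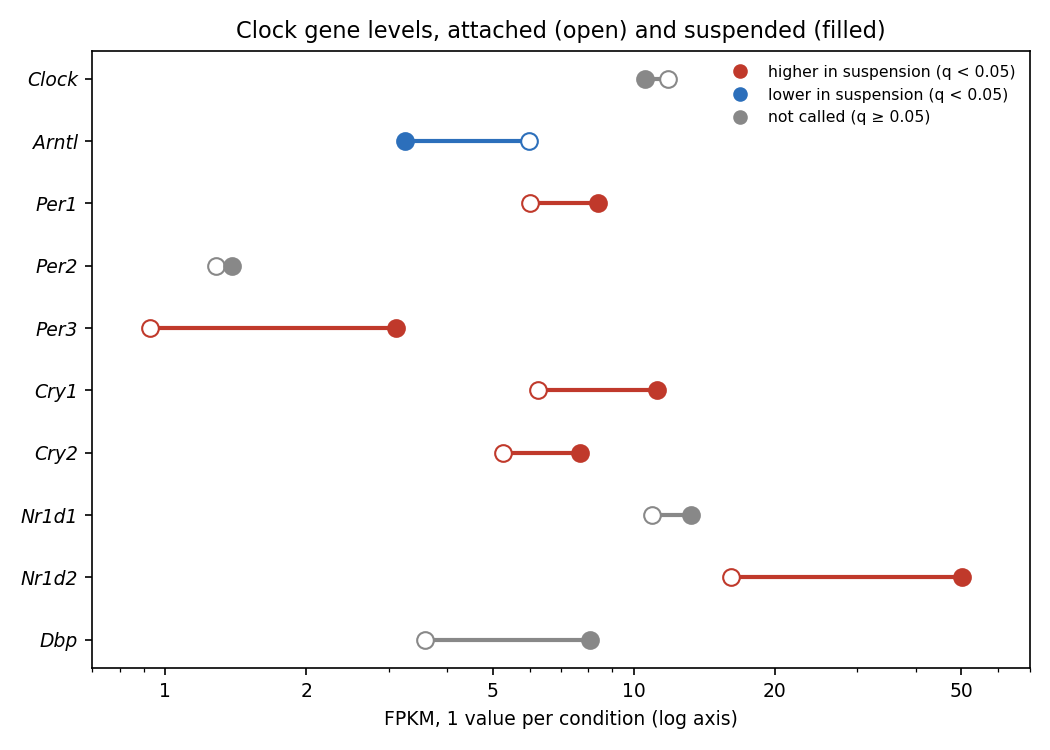
FPKM (log axis) of the 10 clock genes in attached (open) and suspended (filled) cells, where colours give the authors' call. Nr1d2 moved from 16.1 to 50.2 FPKM and Per3 from 0.927 to 3.12 FPKM, Arntl moved the other way, and the circles of Clock and Per2 lie close together.

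The promoter windows of clock genes were searched for elements through which the loops are known to work. Some of the windows with a match are shown before the values. The E-box CACGTG stood in windows of 2 clock genes and the D-box in that of 1. RefSeq promoter windows (GRCm38.p6, the build named mm10 in the submitters' notes), running from 250 bases before to 50 bases after an annotated start, were matched by symbol for 9 of the 10 genes, in 13 windows. Both strands were searched for the E-box CACGTG, its variant CACGTT (read on the other strand as AACGTG), the D-box TTATGTAA, the nuclear receptor core site AGGTCA and the cAMP response element TGACGTCA. Bases annotated as an exon of the same gene in GENCODE M21 were trimmed from the windows printed here. The short Arntl stretches are the exception, as they lie in an exon of Arntl. Capitals mark the match, and each sequence reads 5′ to 3′ on the gene's strand.

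Per3 carried the D-box 2 times, and Cry1, Per1 and Nr1d2 carried elements of the other kinds. In Arntl the capitals mark AAAGTAGGT, a repeat that is not one of those elements. The receptor core site AGGTCA overlaps its second copy and is only partly in capitals, as shown in these sequences.
Per3, chr4:151044666-151044915, minus strand, D-box in capitals: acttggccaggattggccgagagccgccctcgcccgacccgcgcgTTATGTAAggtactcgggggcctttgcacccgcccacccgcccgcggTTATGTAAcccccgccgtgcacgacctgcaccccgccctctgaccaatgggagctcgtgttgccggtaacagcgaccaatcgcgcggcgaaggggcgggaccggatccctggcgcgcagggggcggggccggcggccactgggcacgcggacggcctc
Cry1, chr10:85185065-85185304, minus strand, E-box and its variant in capitals: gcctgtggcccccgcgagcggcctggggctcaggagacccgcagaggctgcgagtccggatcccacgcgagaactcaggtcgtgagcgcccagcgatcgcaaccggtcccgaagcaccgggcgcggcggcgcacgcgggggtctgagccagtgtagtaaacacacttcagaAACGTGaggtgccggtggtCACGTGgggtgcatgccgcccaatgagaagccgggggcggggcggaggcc
Per1, chr11:69098699-69098947, plus strand, E-box in capitals: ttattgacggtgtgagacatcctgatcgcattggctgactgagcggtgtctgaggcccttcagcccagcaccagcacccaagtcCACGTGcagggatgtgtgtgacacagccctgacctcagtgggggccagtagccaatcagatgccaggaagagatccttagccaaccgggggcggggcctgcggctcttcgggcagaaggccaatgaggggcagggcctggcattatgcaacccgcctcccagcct
Nr1d2, chr14:18239128-18239356, minus strand, receptor core site in capitals: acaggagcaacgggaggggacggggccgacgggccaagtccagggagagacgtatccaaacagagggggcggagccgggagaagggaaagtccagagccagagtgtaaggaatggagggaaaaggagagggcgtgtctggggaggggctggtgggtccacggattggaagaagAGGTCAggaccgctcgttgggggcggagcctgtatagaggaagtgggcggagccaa
Arntl, chr7:113207493-113207522, plus strand, first repeat in capitals: ttggtcggAAAGTAGGTtagtggtgcgaca
Arntl, chr7:113207529-113207558, plus strand, second repeat in capitals: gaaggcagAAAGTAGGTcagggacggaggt

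The 2 D-boxes of Per3 began 205 and 158 bases before its start. A D-box was present in 0.938% of all 32851 windows of this length, and 2 or more in 0.0213%. The window printed for Per3 lies within the much longer gene Camta1, which overlaps it on the same strand in GENCODE. The E-box of Cry1 began 60 bases and its variant 79 bases before the start, and the E-box of Per1 began 166 bases before the more upstream of its RefSeq starts, inside an intron of the longer annotated Per1 gene. E-boxes were present in 7.15% of all windows. The CACGTT variant also stood in the windows of Cry2 (166 bases before the start) and Nr1d1 (28 bases before it), against 4.68% of all windows. Nr1d2 held the receptor core site 77 bases before its start, and windows of Per1, Clock and Arntl held it too, against 16.3% of all windows. These shares count windows, not genes, and Clock has 3 windows and Per1 and Arntl 2 each. Counted by gene, 1130 of the 9711 tested genes with a window held the E-box, 620 the CACGTT variant and 1468 the receptor core site. In Arntl the receptor core site overlaps the second of 2 copies of AAAGTAGGT, both inside the transcribed first exon, in its UTR, and these letters were searched for after the sequence had been seen. AAAGTAGGT was found in 0.183% of all windows and 2 or more copies in 0.00913%, which is 3 windows with the second Arntl window among them. As the letters were taken from Arntl itself, these shares do not say how unusual its match is. The cAMP response element matched none of the windows of clock genes and 1.79% of all windows, and the Dbp window held none of the letters searched.

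**Figure D2:**
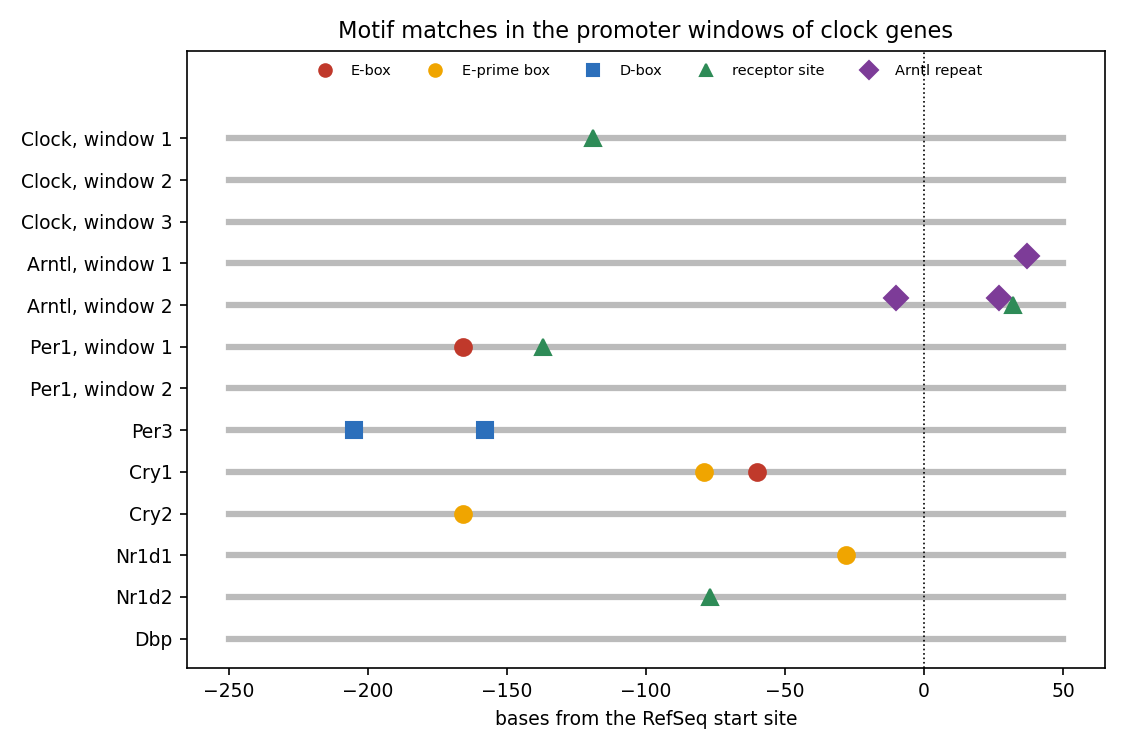
Each grey line is 1 RefSeq promoter window of a clock gene, drawn by distance in bases from its start site (upstream negative), and symbols mark the first base of each match. The 2 D-boxes of Per3 stand at -205 and -158, and the repeats of Arntl stand at -10 and 27 in its second window.

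A match says nothing of binding. Of the 1130 tested genes with an E-box in a window, 31.1% were called higher and 26.5% lower, beside 26.6% and 29.0% of all 9711 tested genes that have a window, per the authors' deposited table. The 1468 tested genes with the receptor core site had 27.2% called higher and 26.6% lower per the authors' deposited table. The 63 with a D-box had 22.2% called higher and 41.3% lower per the authors' deposited table. Per3, which rose, thus stood among the smaller share of D-box genes. These shares were not tested, and genes that share an element are not independent.

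Of the activators, Arntl was called lower and Clock was not called, and whether their changes differ was not tested. Arntl, the activator whose loss stops circadian rhythms in mice, fell from 5.97 FPKM attached to 3.25 FPKM suspended per the authors' deposited table (q = 0.000185). It was 1.84-fold lower in suspension, a log2 fold change of -0.88, and lay at percentile 11.1 of the log2 fold changes of tested rows per the authors' deposited table. Clock, its partner and a histone acetyltransferase, stood at 11.8 FPKM attached and 10.6 FPKM suspended per the authors' deposited table (q = 0.243). The authors' p implies a standard error near 0.11 on the log2 scale for Clock, if the log2 fold change varied normally, and a 95% interval from -0.38 to 0.06. The FPKM of Arntl was thus 0.506 of that of Clock attached and 0.308 suspended, a ratio of levels that was not tested. Arntl lies on chromosome 7 at 113207465 to 113314126 and Clock on chromosome 5 at 76209868 to 76304792 (mm10, GENCODE M21).

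The 3 Per genes, whose proteins are the rhythmically made limb of the repressor complex, included 2 called higher and 1 not called, and differences between them were not tested. Per3, the member that mouse clocks depend on least, rose from 0.927 to 3.12 FPKM per the authors' deposited table (q = 0.000185). That was 3.36-fold, at percentile 91.7 of the log2 fold changes of tested rows per the authors' deposited table. Per1, also an early responder to cAMP and glucocorticoid signals, rose from 6.01 to 8.38 FPKM per the authors' deposited table (q = 0.0210). Its change was smaller at 1.39-fold, with an implied 95% interval on the log2 scale from 0.12 to 0.84, and it was no longer called at q below 0.01 per the authors' deposited table. Per2 stood at 1.29 and 1.39 FPKM per the authors' deposited table (q = 0.610), with an implied interval on the log2 scale from -0.22 to 0.45. At these levels Per1 made up 73.1% of the summed FPKM of the 3 genes attached and 65.0% suspended, and Per3 went from 11.3% to 24.2% of it per the authors' deposited table. The sum itself was 8.22 FPKM attached and 12.9 FPKM suspended per the authors' deposited table.

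Per1 lies on chromosome 11 at 69095217 to 69109960, Per2 on chromosome 1 at 91415982 to 91459324 and Per3 on chromosome 4 at 151003652 to 151044665 (mm10, GENCODE M21). The deposited row of Per3 is placed in a locus of 947315 bases that it shares with 7 other rows. Of these, Tnfrsf9 went from 0.298 to 5.84 FPKM and Vamp3 from 17.1 to 24.6 FPKM, both called higher, per the authors' deposited table. Camta1, which spans Per3, stood at 2.58 and 2.92 FPKM (q = 0.858) per the authors' deposited table. No exon of Per3 overlaps an exon of another gene in GENCODE M21.

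Both cryptochromes rose. These flavoprotein-like repressors bind CLOCK and ARNTL directly and give the loop its strongest repression. Cry1 went from 6.25 to 11.2 FPKM (1.79-fold, q = 0.000185) per the authors' deposited table. Cry2 went from 5.26 to 7.67 FPKM (1.46-fold, q = 0.000355) per the authors' deposited table, with an implied 95% interval on the log2 scale from 0.27 to 0.82. For Cry1 the p stands at the smallest value in the table, 5e-05, so only an upper limit near 0.21 can be given for the standard error of its log2 fold change of 0.84. Whether the larger change of Cry1 differs from that of Cry2 was not tested. Their summed level was 11.5 FPKM attached and 18.9 FPKM suspended per the authors' deposited table. Cry1 lies on chromosome 10 at 85131700 to 85185064 and Cry2 on chromosome 2 at 92403646 to 92434043 (mm10, GENCODE M21). Exons of Cry2 share 295 of 6320 bases with the noncoding D930015M05Rik on the opposite strand, a row at 0.0576 and 0.140 FPKM that was not tested per the authors' deposited table.

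The REV-ERB receptors, haem-binding repressors of Arntl, included the clock gene with the highest level in both conditions, Nr1d2. Nr1d2 rose from 16.1 to 50.2 FPKM (3.11-fold, q = 0.000185) per the authors' deposited table, at percentile 91.0 of the log2 fold changes of tested rows. Its level moved from percentile 61.8 to percentile 87.3 of the FPKM of tested rows per the authors' deposited table. Nr1d1 stood at 10.9 FPKM attached and 13.2 FPKM suspended per the authors' deposited table (q = 0.147), with an implied 95% interval on the log2 scale from -0.04 to 0.59. Nr1d2 was thus 1.48 times the level of Nr1d1 attached and 3.80 times suspended, and that difference was not tested. The summed FPKM of both receptors was 27.0 attached and 63.4 suspended per the authors' deposited table. Nr1d2 stood 2.70 times as high as Arntl attached and 15.5 times as high suspended per the authors' deposited table. This ratio sets a gene called higher against the only clock gene called lower, and it was not tested. Nr1d2 lies on chromosome 14 at 18204054 to 18239127 and Nr1d1 on chromosome 11 at 98767932 to 98775333 (mm10, GENCODE M21). The exons of Nr1d1 share 263 of 3077 bases with Thra, the thyroid hormone receptor alpha gene on the opposite strand (8.91 and 11.0 FPKM, q = 0.247), per the authors' deposited table. Whether strand was counted is not given in the sources used here, so reads from that stretch cannot be told apart.

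Dbp, a transcription factor of the PAR bZIP family that is often read as a direct output of CLOCK and ARNTL, had a large but imprecise difference. It stood at 3.60 FPKM attached and 8.08 FPKM suspended, 2.25-fold apart (q = 0.106), per the authors' deposited table. The implied standard error was 0.61 on the log2 scale, the largest of the 6 clock genes for which it could be given, and the 95% interval ran from -0.04 to 2.37. Dbp lies on chromosome 7 at 45705088 to 45710203 (mm10, GENCODE M21), and its exons share 539 of 2993 bases with Sphk2 on the opposite strand. Its deposited locus also holds the ribosomal protein gene Rpl18 (364 and 310 FPKM, q = 0.187) per the authors' deposited table. Sphk2, a sphingosine kinase, was called higher there (12.9 to 19.0 FPKM, q = 0.0351) per the authors' deposited table, and the part of shared reads in the Dbp values was not tested.

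**Figure D3:**
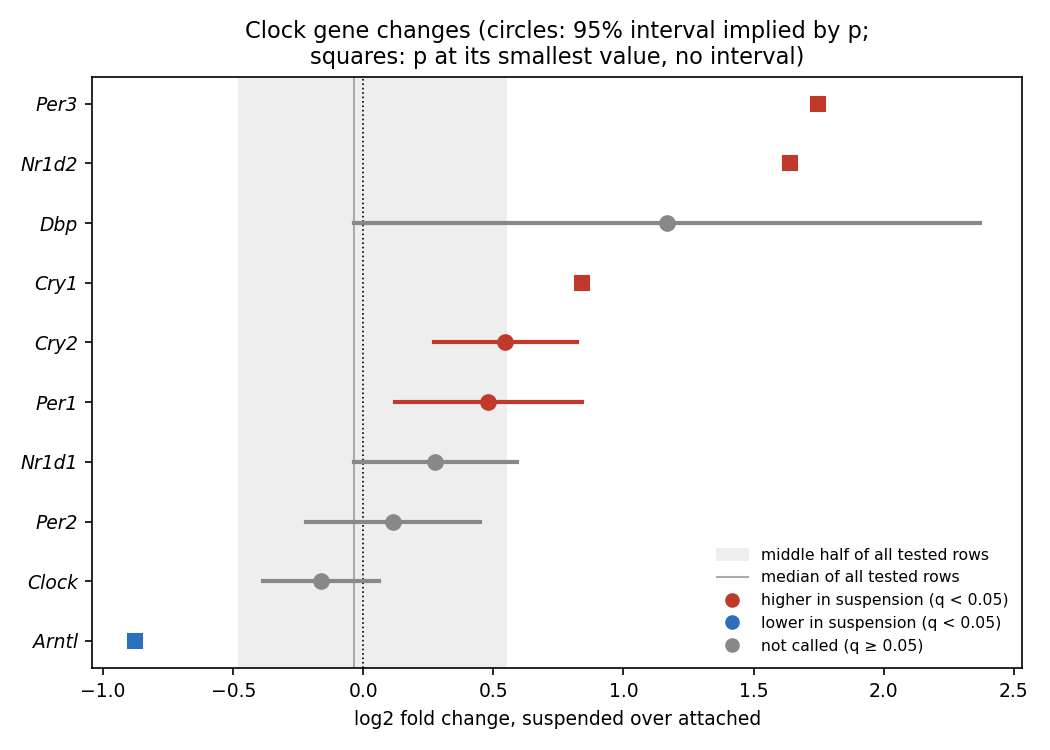
Change of each clock gene between suspended and attached cells, on the log2 scale, per the authors' deposited table, with the 95% interval implied by p for the 6 genes above the smallest p and squares without an interval for the other 4. The grey band spans the quartiles of all tested rows, -0.48 to 0.55, and Per3, Nr1d2, Dbp and Cry1 lie above it while Arntl lies below it.

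Ordered by FPKM, which is scaled to length and so can be set side by side between genes, the attached cells ran from Nr1d2 (16.1) through Clock (11.8), Nr1d1 (10.9), Cry1 (6.25), Per1 (6.01), Arntl (5.97), Cry2 (5.26), Dbp (3.60) and Per2 (1.29) to Per3 (0.927 FPKM) per the authors' deposited table. In suspension Nr1d2 stayed first, Clock moved from rank 2 to rank 4, Arntl from rank 6 to rank 8, and Per2 became the lowest, per the authors' deposited table. Without values per library, neighbours in this order such as Cry1, Per1 and Arntl in attached cells cannot be told apart. The median FPKM of tested rows was 9.91 attached and 9.69 suspended per the authors' deposited table, so most clock genes lay at or below the middle of the expressed range. With 2 conditions no likeness of pattern between genes can be measured, and no gene is named as most alike.

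The wider clock pathway was read from 6 lists that share no gene with the 10 clock genes. Of 90 genes found, 85 were tested, and 36 were called higher and 25 lower per the authors' deposited table. That is 42.4% higher and 29.4% lower, beside 24.7% and 26.3% of all tested rows. The lists were chosen with earlier results of these data known, and the difference in shares was not tested. The median log2 fold change of the 85 was 0.16 per the authors' deposited table.

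All 4 tested members of the list of activator paralogs and ROR receptors rose, with a median log2 fold change of 1.76 per the authors' deposited table. Of all tested rows, 24.7% were called higher. Rora, a receptor that activates Arntl at the elements where REV-ERB proteins repress it, went from 3.99 to 11.5 FPKM (2.88-fold, q = 0.000185) per the authors' deposited table. Arntl thus fell while transcripts of both a known repressor (Nr1d2) and a known activator (Rora) of it rose. Arntl2, the paralog of Arntl, went from 1.50 to 2.96 FPKM (q = 0.0187) per the authors' deposited table, against the direction of Arntl. Npas2, the paralog of Clock, went from 0.0829 to 0.459 FPKM (q = 0.0168) per the authors' deposited table, a low level in both conditions.

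Of the factors that bind D-boxes and E-boxes, 3 of 5 tested rose and 0 fell, beside 24.7% and 26.3% of all tested rows. Their median log2 fold change was 0.31 per the authors' deposited table. Tef, a PAR bZIP activator like Dbp, went from 12.9 to 32.6 FPKM (2.53-fold, q = 0.000185) per the authors' deposited table. Bhlhe41 and Bhlhe40 (DEC2 and DEC1), repressors at E-boxes, went from 4.22 to 8.48 FPKM (q = 0.000185) and from 70.3 to 87.4 FPKM (q = 0.00685) per the authors' deposited table. Nfil3, the D-box repressor, stood at 2.83 and 2.93 FPKM (q = 0.857) per the authors' deposited table. Ciart, a repressor of CLOCK and ARNTL listed under its older name Gm129, stood at 4.14 and 4.40 FPKM (q = 0.774) per the authors' deposited table. Hlf, the third PAR bZIP factor, was at 0.0251 and 0.164 FPKM and was not tested per the authors' deposited table.

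Enzymes that set the lifetime of PER and CRY proteins were called in both directions, more often higher than lower. Of 20 kinases, phosphatases and ubiquitin ligases, 8 (40.0%) rose and 3 (15.0%) fell, beside 24.7% and 26.3% of all tested rows. Their median log2 fold change was 0.22 per the authors' deposited table. Fbxl21, an F-box protein that binds CRY proteins, went from 1.54 to 3.18 FPKM (q = 0.000518) per the authors' deposited table. Usp2, a deubiquitinase and common clock output, went from 0.386 to 2.07 FPKM (q = 0.0122) per the authors' deposited table. Gsk3b, a kinase of several clock proteins, went from 28.6 to 43.0 FPKM (q = 0.000185) per the authors' deposited table, and Ppp5c, a phosphatase that acts on casein kinase 1 epsilon, from 56.7 to 36.7 FPKM (q = 0.000185) per the authors' deposited table.

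Among the coregulators 12 of 23 tested fell (52.2%) and 4 rose (17.4%), beside 26.3% and 24.7% of all tested rows. Their median log2 fold change was -0.42 per the authors' deposited table. Hdac1, a histone deacetylase recruited with PER complexes, went from 19.0 to 9.24 FPKM per the authors' deposited table. Wdr5, a PER-associated chromatin protein, went from 24.7 to 13.1 FPKM, Tipin, the partner of TIMELESS, from 32.7 to 17.7 FPKM, and Sfpq, which helps PER repress, from 80.7 to 45.2 FPKM per the authors' deposited table (q = 0.000185 each). Sirt1, the NAD-dependent deacetylase tied to the clock, rose from 6.94 to 16.8 FPKM (q = 0.000185) per the authors' deposited table. Nampt, which makes the NAD precursor and is itself an E-box gene, rose too, from 16.8 to 46.4 FPKM (q = 0.000185) per the authors' deposited table.

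Genes of the CREB and glucocorticoid receptor branch, through which outside signals are known to reach Per1 and Per2, rose in 8 of 12 cases and fell in 1. That is 66.7% and 8.3%, beside 24.7% and 26.3% of all tested rows. Their median log2 fold change was 0.53 per the authors' deposited table. Fkbp5 and Klf9, targets of the glucocorticoid receptor, went from 0.705 to 3.75 FPKM and from 20.7 to 53.2 FPKM per the authors' deposited table (q = 0.000185 each). The receptor gene itself, Nr3c1, went from 20.9 to 36.6 FPKM, and Crtc1, a CREB coactivator, from 4.16 to 8.36 FPKM per the authors' deposited table (q = 0.000185 each). Sgk1, a kinase that activates sodium channels and also a glucocorticoid target, fell from 25.8 to 15.4 FPKM (q = 0.000185) per the authors' deposited table.

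Output genes showed no common direction: 10 of 23 tested rose and 10 fell (43.5% each), beside 24.7% and 26.3% of all tested rows. Their median log2 fold change was -0.13 per the authors' deposited table. Sgk1 and Tsc22d3 are counted in this list and in the preceding one. The largest rises were of Fmo2, a flavin monooxygenase, from 0.0515 to 1.37 FPKM, and Lonrf3 from 0.166 to 3.44 FPKM per the authors' deposited table (q = 0.000185 each), both from levels near 0. Noct (listed as Ccrn4l), nocturnin, whose transcript is rhythmic in many tissues, went from 12.9 to 37.2 FPKM (q = 0.000185) per the authors' deposited table. Edn1, which encodes endothelin 1, a peptide that limits sodium uptake in the collecting duct, fell from 3.48 to 1.03 FPKM (q = 0.000185) per the authors' deposited table.

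**Figure D4:**
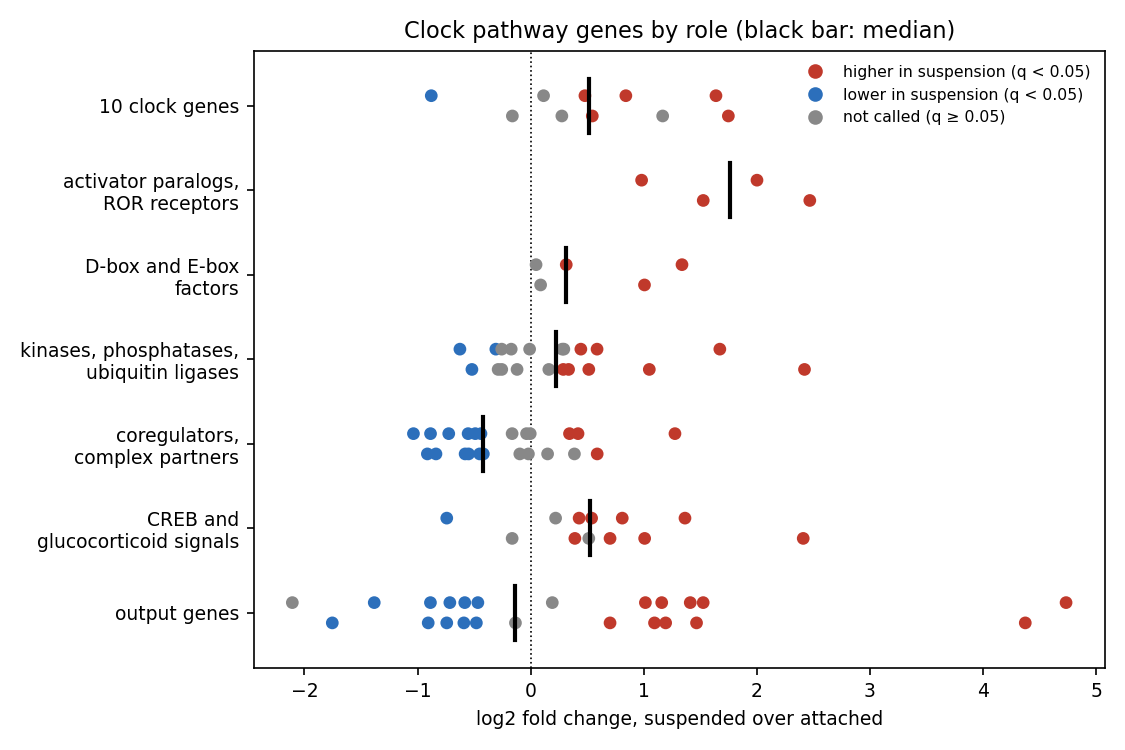
Tested genes grouped by role, with the log2 fold change of suspended over attached cells on the x axis, colours for the authors' call and a black bar for each group's median. The activator paralogs and ROR receptors lie to the right (median 1.76), the coregulators mostly to the left (median -0.42), and the output genes on both sides of 0.

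Several features of the whole table stood beside these results. Transcripts of the genes labelled as deleted were present per the authors' deposited table. Bcl2l11 (Bim) stood at 9.53 and 51.4 FPKM and was called higher (q = 0.000185). Bmf stood at 2.95 and 4.30 FPKM and was not called (q = 0.287). These are values for whole genes that do not check the deletions. Of the kidney epithelium markers, 8 of 8 were above 1 FPKM, with summed levels of 2503 FPKM attached and 2306 FPKM suspended per the authors' deposited table. Of the markers of tubule segments, 4 of 5 proximal, 4 of 4 thick limb and distal and 2 of 5 collecting duct markers were under 1 FPKM in both conditions per the authors' deposited table. Among these low rows the proximal Cubn (0.491 to 0.904 FPKM, q = 0.000518) and the thick limb Slc12a1 (0.0207 to 0.313 FPKM, q = 0.00991) were called higher. The others were not tested. The fifth proximal marker, the water channel Aqp1, fell from 79.1 to 11.8 FPKM (q = 0.000185) per the authors' deposited table. In the collecting duct list the water channel Aqp3 (0.0334 to 3.22 FPKM) and the sodium channel subunit Scnn1a (3.67 to 8.39 FPKM) were called higher, and the vasopressin receptor Avpr2 stood at 3.41 and 0.791 FPKM (q = 0.0570), per the authors' deposited table. Of 5 leukocyte markers, Ptprc (1.42 to 12.4 FPKM) and Cd68 (23.4 to 34.9 FPKM) were called higher, Cd3e and Itgam were under 1 FPKM, and the sum went from 25.0 to 47.5 FPKM per the authors' deposited table. Fibroblast, endothelial and podocyte markers summed to 0.223, 0.353 and 1.60 FPKM attached and to 1.95, 0.298 and 7.95 FPKM suspended per the authors' deposited table. Nearly all of the podocyte sum came from Podxl (1.60 to 7.87 FPKM) and most of the fibroblast sum from Pdgfra (0.155 to 1.81 FPKM), both called higher, and the other members of these 3 lists were near 0 and not tested, per the authors' deposited table. Mitochondrial rows, read as a sign of RNA quality, summed to 31198 FPKM attached and 68368 FPKM suspended, with 3 of 10 tested called higher and 0 lower, per the authors' deposited table. The part of these shifts in the clock gene values was not tested, and in bulk RNA fewer cells of a type and less RNA per cell cannot be told apart. The median log2 fold change was -0.11 over rows with 1 FPKM or more both attached and suspended, per the authors' deposited table, and relative to it all 10 clock genes kept their sign.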

How the data were processed

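Libraries were made from mRNA and sequenced on an Illumina HiSeq, per the labels' protocols. The submitters' processing notes name Cuffdiff, Cufflinks 1.0.3, TopHat and Bowtie and the build mm10. Of settings, annotation and strand counting the sources used here say nothing. In the deposited file the authors give FPKM, 1 value for each condition. The log2 fold changes, test scores, p-values and q-values are also the authors' own, per the file headers. The columns carry names ending in A and S, read here as attached and suspended.

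Genes were called at the authors' q below 0.05 over all 14748 tested rows, and no fit over libraries was possible. The deposited log2 values matched the FPKM ratios of the clock genes to within 6.9e-06. Standard errors are the log2 fold change divided by the normal quantile of the two-sided p, which assumes normal errors. For the 4 genes at the smallest p, 5e-05, only an upper limit follows.

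The clock genes and lists were chosen with earlier results of these data known. In each list the text names up to 5 called genes with the largest change and at least 1 FPKM in the higher condition, and the closest relatives of clock factors whatever their call. Some genes that this rule picks are not reported here. Of 94 list entries 2 were older or second names of genes already listed, 2 were found under older RefSeq names, and 2 genes stand in 2 lists, which left 90. Of the 10 clock genes, 10 overlapped their deposited position in GENCODE M21.

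Alternatives were the threshold, a 2-fold minimum, a recomputed Benjamini-Hochberg adjustment, a filter of 1 FPKM, pseudocounts of 1 and 0.1 and rescaling by the table median. Software was matplotlib 3.10.9, pandas 2.3.3, SciPy 1.17.1 and NumPy 2.4.6 under Python 3.11.15.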

Additional observations from a re-analysis of the deposited data

How the results depend on the processing

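Requiring a 2-fold change left 2 of the 6 clock gene calls, 2 higher (Per3 and Nr1d2) and 0 lower, which ended the call of Arntl. It also left 24 of the 61 calls among other clock pathway genes (21 higher, 3 lower) and 2883 of the 7524 calls among all tested rows (1833 higher, 1050 lower). An alternative chosen after seeing the data counted only the 6 clock genes that stand alone at their deposited locus. It gave 4 calls, 3 higher (Per1, Cry1 and Nr1d2) and 1 lower (Arntl). At q below 0.01 the clock gene calls were 5, without Per1. The recomputed adjustment and the filter on low values moved no count by more than 1.5 times. All 10 clock genes kept their sign under both pseudocounts and under rescaling, with 8 above 0 each time, and Per3 shrank most, from a log2 fold change of 1.75 to 1.09 with a pseudocount of 1.

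No paired analysis was possible because the values are 1 per condition and carry no replicate numbers, and for the same reason leaving out a replicate, another test and another normalization of libraries were not run. Depth is unknown, so the low levels of Per2, Per3 and Npas2 have no floor or counting interval.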
